A study of Arabidopsis thaliana with 8 samples.

Results

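Root tips of the bzr1-D/bin2-1 double mutant were compared with untreated wild-type root tips of Arabidopsis thaliana, a pair of groups that the deposited tables connect through a bin2-1 group. The double mutant (genotype bzr1-D/bin2-1) is represented by 2 libraries, bin2-1 by 2, wild type treated with 100 µM abscisic acid (ABA) for 3 h (Col+ABA) by 2, and untreated wild type (Col-ABA) by 2, so 4 of the 8 libraries of the study enter the comparison itself. Every group was of the Columbia background, was 7 days old and grew vertically under long days, and RNA came from about the last 1 cm of the root. The labels do not say whether the mutant roots received ABA. In each group 1 library carries the label repeat, with no word on whether separately grown plants were used. All RNA was from whole root tips, so fewer cells of a type and less RNA per cell cannot be told apart.

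Brassinosteroids are growth-promoting steroid hormones of plants that are sensed at the cell surface by the receptor kinase BRI1. In the absence of the hormone the GSK3-like kinase BIN2 phosphorylates the transcription factors BZR1 and BES1 and keeps them inactive, and the hormone signal removes this block. BZR1 both activates growth genes and represses brassinosteroid synthesis genes, and in the root the pathway acts on the meristem and on cell elongation. The dominant bin2-1 allele encodes a kinase that resists inactivation and is insensitive to the hormone, and the dominant bzr1-D allele encodes a stabilised BZR1 protein. The double mutant therefore carries an overactive repressor and, downstream of it, a stabilised target. The study asked whether BZR1 acts on the ABA pathway gene ABI5 in the root.

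Levels are in FPKM, read fragments corrected for the length of the transcript and the size of the library, and each group has 1 pooled value. There is no value per library, so no replicate error and no test of the double mutant against wild type could be given, and a gene is called higher or lower when the log2 ratio of (FPKM + 0.1) passed 2-fold. The depth of the libraries is unknown. Of 33557 genes, 19137 had at least 1 FPKM in the double mutant or in wild type. The double mutant and wild type stand in separately normalised tables, and the double mutant's table was divided by 1.04, the median ratio of the bin2-1 column found in both (lowest 1.02, highest 1.047 over 18638 genes). ABA-treated wild type was brought to the same scale in the same way by dividing by 0.938. Levels are given on the scale of the bin2-1 and wild-type table.

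In the double mutant 1978 genes (10.3%) were at least 2-fold higher than in wild type and 2039 (10.7%) were at least 2-fold lower. These shares are the ones to set beside the 2-fold counts of each list below. At 4-fold, 558 genes (2.92%) were higher and 699 (3.65%) lower. The median log2 ratio of all analysed genes was -0.02 and the quartiles were -0.46 and 0.43. The bin2-1 single mutant, set against the same wild-type value, had 2163 genes (11.2%) at least 2-fold higher and 2154 (11.2%) at least 2-fold lower. Between the 2 mutants, 909 genes (4.75%) were at least 2-fold higher in bzr1-D/bin2-1 than in bin2-1 and 1058 (5.52%) were at least 2-fold lower. The comparisons of both mutants with wild type share the Col-ABA libraries, so values are given side by side and no overlap between them is drawn. The 8 transcripts of a list of reference genes, among them ACT2 (-0.18 on the log2 scale), PP2AA3 (0.06) and TUB2 (0.23), were all within 2-fold.

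**Figure D1:**
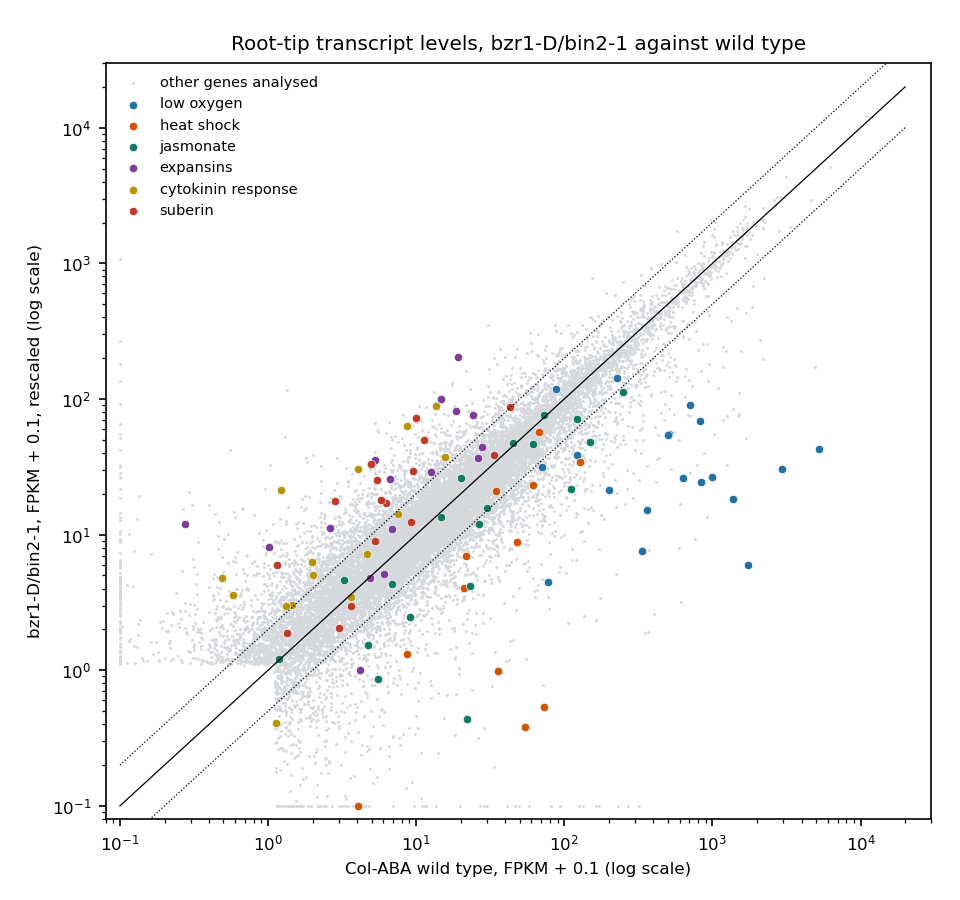
FPKM + 0.1 of each analysed gene in bzr1-D/bin2-1 (vertical axis, log scale, rescaled) against untreated wild type (horizontal axis, log scale), with 1 pooled value per group. The solid line marks equality, the dotted lines 2-fold, and coloured points are members of 6 lists: low-oxygen, heat-shock and jasmonate genes lie mostly below the line, and expansin, cytokinin-response and suberin genes mostly above it.

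The tissue labels were checked with root markers. All 19 members of a root meristem patterning list and all 9 of a Casparian strip list were analysed, for example SCR at 25.8 FPKM in bzr1-D/bin2-1 and 22.2 FPKM in wild type, SHR at 24.9 FPKM in bzr1-D/bin2-1 and 19.8 FPKM in wild type, and CASP1, a scaffold of the endodermal Casparian strip, at 168 FPKM in bzr1-D/bin2-1 and 167 FPKM in wild type. The photosynthesis transcripts of a green tissue list summed to 90.03 FPKM in bzr1-D/bin2-1 and 69.96 FPKM in wild type over all 21 matched genes, of which 12 were analysed. Most were low, and LHCB2.1, LHCB1.1 and GLK1 were under 1 FPKM in both groups. The transcripts of BIN2 and BZR1 do not check the genotypes, because both alleles change the protein and leave the gene transcribed. BIN2 was at 69.96 FPKM in bzr1-D/bin2-1 and 102 FPKM in wild type (log2 ratio -0.55), and BZR1 was at 26.03 FPKM in bzr1-D/bin2-1 and 72.2 FPKM in wild type (log2 ratio -1.47), with 34.4 FPKM in bin2-1.

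ABI5, the ABA-responsive bZIP transcription factor named in the title of the study, was close to wild type in the double mutant. It was listed at 1.19 FPKM in bzr1-D/bin2-1, 3.22 FPKM in bin2-1 and 0.998 FPKM in wild type, and at 9.53 FPKM in ABA-treated wild type. The log2 ratio of bzr1-D/bin2-1 over wild type was 0.24, against 1.60 for bin2-1 over wild type. In the authors' deposited table ABI5 fell by 1.43 on the log2 scale in bzr1-D/bin2-1 relative to bin2-1 (q = 0.000451). The double-mutant and wild-type values of ABI5 are both near the minimum of 1 FPKM used here.

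The 300 bases before the annotated start of 5 genes are shown because BZR1 is known to recognise 2 short sequences, the brassinosteroid response element (BRRE, CGTGTG or CGTGCG) and the G-box (CACGTG), and these genes span the range from near wild type to strongly lower. They are taken from the RefSeq annotation of TAIR10.1 and are written 5′ to 3′ on the strand of the gene, with capitals marking a match on either strand. The G-box reads the same on both strands and can overlap a BRRE.
The windows lie at chr2:15207637-15207936 (minus strand) for ABI5, chr1:28185204-28185503 (plus strand) for BZR1, chr1:6331098-6331397 (plus strand) for BEE1, chr3:18817406-18817705 (minus strand) for DWF4 and chr3:4500921-4501220 (minus strand) for CYP90D1.
ABI5: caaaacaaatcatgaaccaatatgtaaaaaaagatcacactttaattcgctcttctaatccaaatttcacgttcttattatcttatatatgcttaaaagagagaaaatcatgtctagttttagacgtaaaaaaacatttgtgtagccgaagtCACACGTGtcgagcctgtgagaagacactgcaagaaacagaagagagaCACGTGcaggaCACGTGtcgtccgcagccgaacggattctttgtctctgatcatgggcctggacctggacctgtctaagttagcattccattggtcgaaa
BZR1: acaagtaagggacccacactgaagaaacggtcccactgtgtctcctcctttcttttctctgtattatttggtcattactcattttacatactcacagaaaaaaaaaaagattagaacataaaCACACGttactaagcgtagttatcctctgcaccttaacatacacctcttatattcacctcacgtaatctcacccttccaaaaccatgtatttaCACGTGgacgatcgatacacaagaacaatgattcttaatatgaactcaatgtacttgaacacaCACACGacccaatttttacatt
BEE1: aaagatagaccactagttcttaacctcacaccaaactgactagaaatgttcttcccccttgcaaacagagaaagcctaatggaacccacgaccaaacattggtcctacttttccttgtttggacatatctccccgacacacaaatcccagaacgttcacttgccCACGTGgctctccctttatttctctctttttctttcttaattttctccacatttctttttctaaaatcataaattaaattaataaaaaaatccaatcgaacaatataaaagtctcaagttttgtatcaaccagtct
DWF4: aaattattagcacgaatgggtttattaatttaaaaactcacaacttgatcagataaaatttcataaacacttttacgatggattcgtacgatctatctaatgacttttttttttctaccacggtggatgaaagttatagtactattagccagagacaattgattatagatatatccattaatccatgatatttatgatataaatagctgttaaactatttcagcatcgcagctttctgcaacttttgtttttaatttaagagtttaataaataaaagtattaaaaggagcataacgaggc
CYP90D1: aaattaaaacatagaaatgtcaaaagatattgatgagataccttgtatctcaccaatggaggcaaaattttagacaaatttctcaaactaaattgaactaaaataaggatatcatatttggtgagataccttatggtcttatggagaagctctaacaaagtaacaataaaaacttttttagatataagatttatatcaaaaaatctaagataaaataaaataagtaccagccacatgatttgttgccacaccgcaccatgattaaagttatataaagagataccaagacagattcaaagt
In the ABI5 window 3 G-boxes begin -146, -100 and -89 bases from the start, and a BRRE read on the opposite strand begins at -148 and overlaps the first of them. The BZR1 window holds 2 BRREs and 1 G-box and the BEE1 window 1 G-box, while neither sequence is found in the windows of DWF4 and CYP90D1, from which nothing is drawn about binding. A BRRE was present in 8.05% of the 18815 windows of analysed genes, in 8.17% of those of genes at least 2-fold higher in the double mutant and in 11.4% of those at least 2-fold lower. For the G-box these shares were 7.92%, 6.88% and 8.71%. These shares describe letters in the windows and were not tested.

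DWF4, BR6OX2 and CPD, synthesis genes that BZR1 is known to repress, were within 2-fold of wild type in the double mutant and above wild type or close to it in bin2-1. All 11 listed synthesis genes were analysed, and 1 was at least 2-fold lower and none higher, against 10.7% and 10.3% of all genes. The median log2 ratio was -0.32, against 0.23 for bin2-1 over wild type. CYP90D1, a cytochrome P450 that hydroxylates the hormone's side chain, was the one past 2-fold, at 1.18 FPKM in bzr1-D/bin2-1, 6.95 FPKM in bin2-1 and 11.8 FPKM in wild type (log2 ratio -3.21). DWF4, a rate-limiting hydroxylase of the pathway, was at 3.704 FPKM in bzr1-D/bin2-1, 14.7 FPKM in bin2-1 and 6.31 FPKM in wild type (log2 ratio -0.75). BR6OX2, which catalyses the last oxidation to brassinolide, was at 6.31 FPKM in bzr1-D/bin2-1, 19.4 FPKM in bin2-1 and 7.99 FPKM in wild type. The related CPD, also a P450, was at 21.9 FPKM in bzr1-D/bin2-1, 32.9 FPKM in bin2-1 and 27.97 FPKM in wild type. For these last genes bin2-1 was the highest of the groups and the double mutant the lowest, and DWF4, BR6OX2, CPD and CYP90D1 were all lower in bzr1-D/bin2-1 than in bin2-1 in the authors' deposited table (q = 0.000451 for DWF4, 0.000848 for CPD). Of the early sterol enzymes, DWF1, a sterol reductase, was at 523 FPKM in bzr1-D/bin2-1 and 338 FPKM in wild type (log2 ratio 0.63) and STE1, a sterol desaturase, at 77.2 FPKM in bzr1-D/bin2-1 and 124 FPKM in wild type (log2 ratio -0.68), both within 2-fold and on opposite sides of wild type.

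Most analysed genes that inactivate brassinosteroids lay well below wild type. Of 5 analysed, 3 were at least 2-fold lower and none higher, against 10.7% and 10.3% of all genes. The median log2 ratio was -1.51, and the highest was -0.09, almost level with wild type. The lowest was UGT73C5, a glucosyltransferase of brassinosteroids, at 0.0600 FPKM in bzr1-D/bin2-1, 6.47 FPKM in bin2-1 and 3.48 FPKM in wild type, and its q in the authors' deposited table for bzr1-D/bin2-1 over bin2-1 was 0.0557. CYP72C1 was at 4.86 FPKM in bzr1-D/bin2-1 and 18.1 FPKM in wild type, and BEN1, a reductase-like enzyme, at 43.8 FPKM in bzr1-D/bin2-1 and 125 FPKM in wild type. BAS1, a hydroxylase that inactivates the hormone, was at 9.81 FPKM in bzr1-D/bin2-1, 5.24 FPKM in bin2-1 and 17.5 FPKM in wild type, within 2-fold of wild type and higher than in bin2-1 in the authors' deposited table (q = 0.000451).

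The hormone's receptors and kinases differed little from wild type. BRI1 was at 41.5 FPKM in bzr1-D/bin2-1 and 49.05 FPKM in wild type, its co-receptor BAK1 at 40.2 FPKM in bzr1-D/bin2-1 and 53.3 FPKM in wild type, and of 12 analysed genes of the list only BSL1, a phosphatase, was past 2-fold (log2 ratio -1.31). BRL3, a receptor close to BRI1, was at 2.34 FPKM in bzr1-D/bin2-1, 5.704 FPKM in bin2-1 and 2.34 FPKM in wild type, so the double mutant and wild type were level and bin2-1 stood above both. None of 9 analysed GSK3-like kinases passed 2-fold, with log2 ratios between -0.55, that of BIN2, and 0.80, that of SK12, which was at 83.8 FPKM in bzr1-D/bin2-1, 61.2 FPKM in bin2-1 and 47.99 FPKM in wild type. BZR1 and 4 of the other 5 members of its family had values below wild type, with a median log2 ratio of -0.72 over the 6 genes, and BZR1 alone passed 2-fold. BES1, the closest relative of BZR1, was at 33.1 FPKM in bzr1-D/bin2-1 and 52.3 FPKM in wild type (log2 ratio -0.66). BEH3 was the one family member above wild type, at 12.00 FPKM in bzr1-D/bin2-1, 17.59 FPKM in bin2-1 and 7.48 FPKM in wild type.

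Genes of a list of growth regulators that respond to brassinosteroids, not all of them induced, were split. BEE1, a bHLH factor induced early by the hormone, was at 0.343 FPKM in bzr1-D/bin2-1, 0.469 FPKM in bin2-1 and 15.2 FPKM in wild type (log2 ratio -5.11). EXO, a cell-wall protein of the brassinosteroid response, was at 55.01 FPKM in bzr1-D/bin2-1, 130.3 FPKM in bin2-1 and 1027 FPKM in wild type (log2 ratio -4.22). These transcripts were thus far below wild type in both mutants, and EXO was lowest in bzr1-D/bin2-1. Both mutant values of BEE1 were under 1 FPKM, so their order is not read. Above wild type were PRE6, a small helix-loop-helix protein, at 42.01 FPKM in bzr1-D/bin2-1, 44.2 FPKM in bin2-1 and 15.6 FPKM in wild type, and BEE3, at 2.601 FPKM in bzr1-D/bin2-1, 0.0805 FPKM in bin2-1 and 0.125 FPKM in wild type, whose q in the authors' deposited table was 0.0898 for bzr1-D/bin2-1 over bin2-1. PRE3 (0.08), IBH1 (-0.25) and HAT2 (-0.36, all log2 ratios) were within 2-fold.

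**Figure D2:**
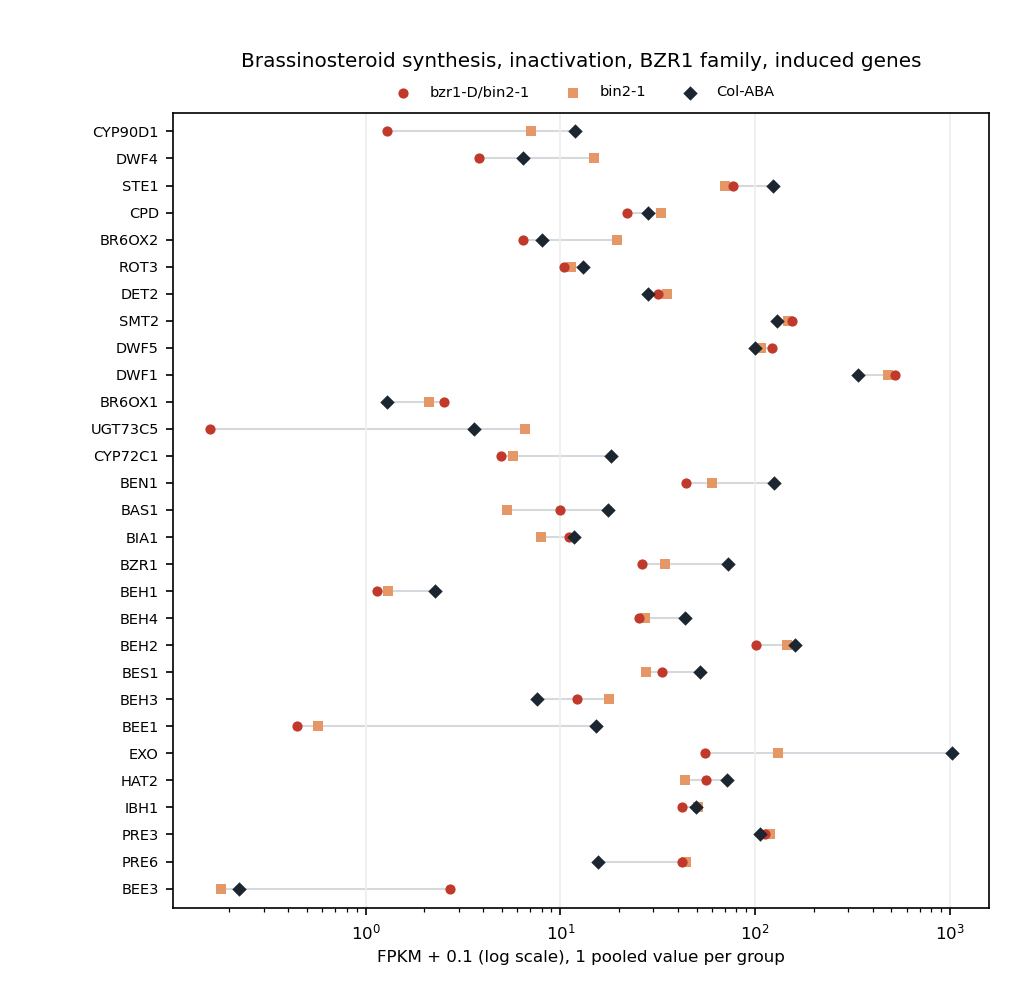
FPKM + 0.1 (horizontal axis, log scale) of brassinosteroid synthesis, inactivation, BZR1-family and growth-regulator genes in bzr1-D/bin2-1 (circles), bin2-1 (squares) and untreated wild type (diamonds), 1 pooled value per group. For DWF4, CPD and BR6OX2 bin2-1 lies above both other groups, and EXO and BEE1 lie far below wild type in both mutants.

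Genes of the low-oxygen response formed the group farthest below wild type. Of 19 analysed genes, 17 were at least 2-fold lower in the double mutant and none was at least 2-fold higher, against 10.7% lower among all genes, and the median log2 ratio was -4.11. Summed over the list, the double mutant had 821 FPKM, bin2-1 1047 FPKM, ABA-treated wild type 8149.8 FPKM and untreated wild type 17784 FPKM. ADH1, alcohol dehydrogenase of ethanol fermentation, was at 42.7 FPKM in bzr1-D/bin2-1, 80.4 FPKM in bin2-1 and 5208 FPKM in wild type. PDC1, the pyruvate decarboxylase that acts before it, was at 30.4 FPKM in bzr1-D/bin2-1, 83.8 FPKM in bin2-1 and 2946 FPKM in wild type. Both fermentation genes were among the 10 with the lowest ratio, of genes at 5 FPKM or more in wild type and above 0 in bzr1-D/bin2-1. NIP2;1, an aquaporin-family channel induced under low oxygen, was a further one, at 5.89 FPKM in bzr1-D/bin2-1, 13.5 FPKM in bin2-1 and 1750.4 FPKM in wild type (log2 ratio -8.19), and 89.9 FPKM in ABA-treated wild type.

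Sucrose-cleaving enzymes and regulators of the response followed the same order. SUS4, a sucrose synthase, was at 18.2 FPKM in bzr1-D/bin2-1, 28.5 FPKM in bin2-1 and 1379.9 FPKM in wild type, and the haemoglobin gene HB1 at 26.6 FPKM in bzr1-D/bin2-1, 43.7 FPKM in bin2-1 and 999 FPKM in wild type. Of the transcriptional regulators, HRE2 was at 7.51 FPKM in bzr1-D/bin2-1, 38.2 FPKM in bin2-1 and 333 FPKM in wild type, HRE1 at 26.2 FPKM in bzr1-D/bin2-1, 41.1 FPKM in bin2-1 and 634 FPKM in wild type and LBD41 at 68.98 FPKM in bzr1-D/bin2-1, 72.5 FPKM in bin2-1 and 825 FPKM in wild type. PCO1 and PCO2, the plant cysteine oxidases that sense oxygen, had log2 ratios of -3.23 and -4.58. Of the constitutive group VII factors of the same pathway, RAP2.12 and RAP2.2 were within 2-fold of wild type. RAP2.12 was at 118 FPKM in bzr1-D/bin2-1 and 88.1 FPKM in wild type. RAP2.2 was at 142 FPKM in bzr1-D/bin2-1 and 227 FPKM in wild type. RAP2.3 was at least 2-fold lower, at 31.5 FPKM in bzr1-D/bin2-1 and 70.9 FPKM in wild type. Altogether 10 of the members were lower in bzr1-D/bin2-1 than in bin2-1 at q under 0.05 in the authors' deposited table, among them HRE2 (log2 -2.35) and PDC1 (log2 -1.46), and 2 were higher. Among all analysed genes 12.4% were lower and 12.4% higher in bzr1-D/bin2-1 than in bin2-1 at that q.

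Most heat-shock genes were also lower. All 12 analysed members had values below wild type, 10 of them past 2-fold, against 10.7% lower at 2-fold among all genes. The median log2 ratio was -2.40. HSP17.6II, a small heat-shock protein, was at 0.281 FPKM in bzr1-D/bin2-1, 0.834 FPKM in bin2-1 and 54.4 FPKM in wild type, and HSP17.6A at 0.432 FPKM in bzr1-D/bin2-1, 2.201 FPKM in bin2-1 and 73.1 FPKM in wild type. HSP21 was listed at 0 in bzr1-D/bin2-1, at 0.0326 FPKM in bin2-1 and at 3.94 FPKM in wild type. The chaperones HSP90.1 and HSP101 were at 8.73 FPKM in bzr1-D/bin2-1 and 47.5 FPKM in wild type and at 3.96 FPKM in bzr1-D/bin2-1 and 21.00 FPKM in wild type. The heat-shock factor HSFA2 was at 1.23 FPKM in bzr1-D/bin2-1 and 8.51 FPKM in wild type, whereas HSFB1 was within 2-fold (log2 ratio -0.23). For HSP17.6II the authors' deposited table gave a q of 0.000188 for bin2-1 over wild type and 0.182 for bzr1-D/bin2-1 over bin2-1. The small heat-shock proteins are similar to one another and may share reads.

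**Figure D3:**
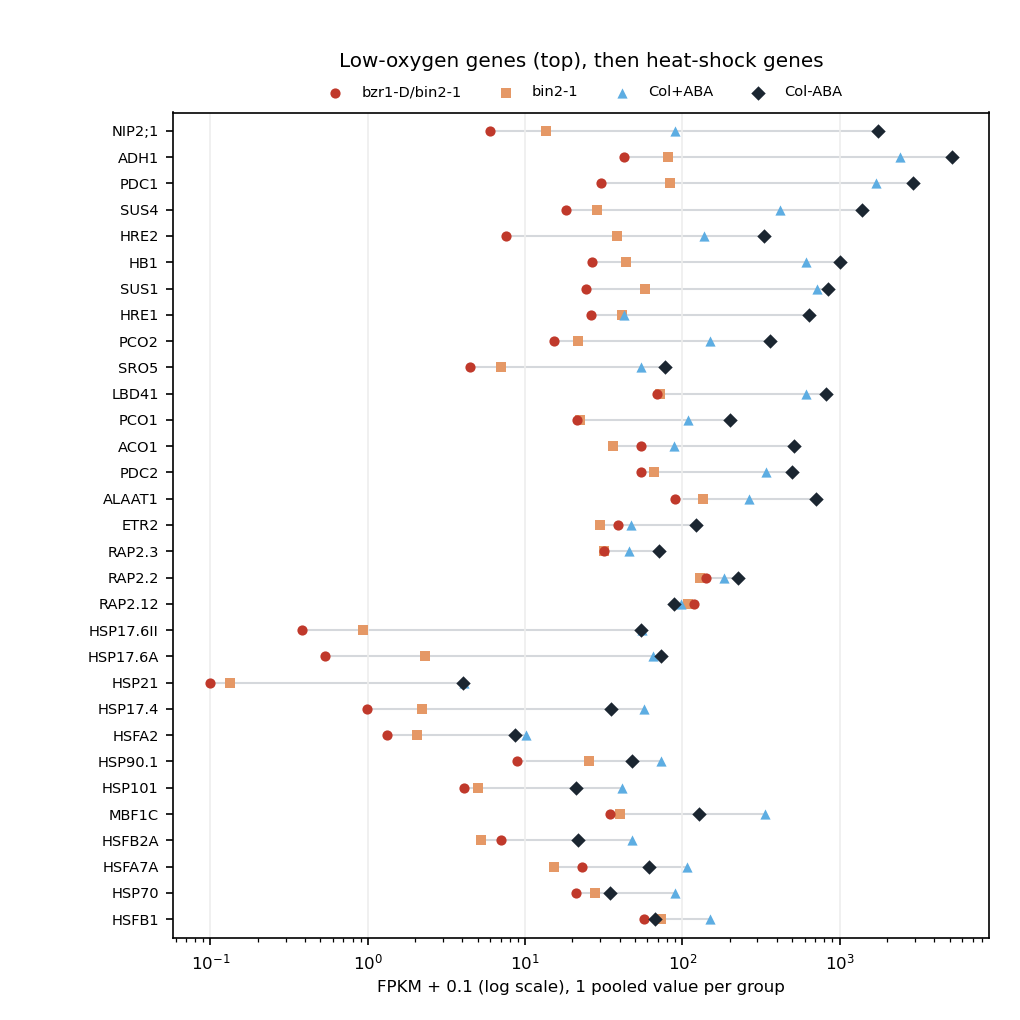
FPKM + 0.1 (horizontal axis, log scale) of low-oxygen genes (top) and heat-shock genes (below) in bzr1-D/bin2-1 (circles), bin2-1 (squares), ABA-treated wild type (triangles) and untreated wild type (diamonds), 1 pooled value per group. For ADH1, PDC1 and SUS4 both mutants lie far left of both wild-type groups, and for HSP17.6II and HSP17.6A the wild-type groups lie together on the right.

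Touch and rapid stress transcripts were mostly lower, and most were lower in the double mutant than in bin2-1. Of 15 analysed genes, 9 were at least 2-fold lower than wild type and 1 was higher, against 10.7% and 10.3% of all genes. The median log2 ratio was -1.04, against -0.17 for bin2-1 over wild type. Between the mutants, the authors' deposited table had 13 of them lower in bzr1-D/bin2-1 than in bin2-1 at q under 0.05, against 12.4% of all analysed genes, and none was higher. CML38, a calmodulin-like protein, was at 9.12 FPKM in bzr1-D/bin2-1, 27.4 FPKM in bin2-1 and 759 FPKM in wild type. WRKY40, a stress transcription factor, was at 8.35 FPKM in bzr1-D/bin2-1, 42.9 FPKM in bin2-1 and 56.7 FPKM in wild type, and ZAT12, a zinc-finger factor, at 61.8 FPKM in bzr1-D/bin2-1, 192 FPKM in bin2-1 and 410.0 FPKM in wild type. For these transcripts the double mutant was the lowest of the groups and wild type the highest. CAF1A, an RNA deadenylase, was the one at least 2-fold higher, at 48.2 FPKM in bzr1-D/bin2-1, 116.7 FPKM in bin2-1 and 21.5 FPKM in wild type.

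Jasmonate genes were more often below wild type than above it in the double mutant. Of 19 analysed genes of the jasmonate list, 9 were at least 2-fold lower in the double mutant and none higher, against 10.7% and 10.3% of all genes. The median log2 ratio was -0.94. In bin2-1 5 of the listed genes were at least 2-fold higher than wild type and 4 lower, against 11.2% each way among all genes. Their median in bin2-1 was -0.18. Of the JAZ proteins, which repress jasmonate signalling, JAZ8 was at 0.336 FPKM in bzr1-D/bin2-1, 4.83 FPKM in bin2-1 and 21.9 FPKM in wild type, JAZ9 at 4.07 FPKM in bzr1-D/bin2-1, 9.57 FPKM in bin2-1 and 23.1 FPKM in wild type and JAZ2 at 21.4 FPKM in bzr1-D/bin2-1, 61.1 FPKM in bin2-1 and 112 FPKM in wild type. For JAZ1 the values were 113 FPKM in bzr1-D/bin2-1, 234 FPKM in bin2-1 and 247 FPKM in wild type, so bin2-1 was near wild type and the double mutant below both. Of the synthesis enzymes LOX4, a lipoxygenase, was lower, at 0.766 FPKM in bzr1-D/bin2-1, 4.804 FPKM in bin2-1 and 5.41 FPKM in wild type, while others were within 2-fold of wild type: AOS was at 26.2 FPKM in bzr1-D/bin2-1, 54.5 FPKM in bin2-1 and 20.05 FPKM in wild type, AOC3 at 76.6 FPKM in bzr1-D/bin2-1, 149 FPKM in bin2-1 and 72.8 FPKM in wild type and OPR3 at 47.3 FPKM in bzr1-D/bin2-1, 52.4 FPKM in bin2-1 and 45.3 FPKM in wild type. Altogether 14 members of the list fell at q under 0.05 in the double mutant relative to bin2-1 in the authors' deposited table, against 12.4% of all analysed genes, and 1 rose.

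Cell-wall loosening genes diverged by family. Of 16 analysed expansins, which loosen the wall, 10 were at least 2-fold higher and 1 was lower, against 10.3% higher among all genes, with a median log2 ratio of 1.81 and 1.64 for bin2-1 over wild type. EXPA9 was at 203 FPKM in bzr1-D/bin2-1, 166 FPKM in bin2-1 and 18.9 FPKM in wild type, EXPA14 at 101 FPKM in bzr1-D/bin2-1, 67.2 FPKM in bin2-1 and 14.7 FPKM in wild type, and EXPA17 at 11.8 FPKM in bzr1-D/bin2-1, 10.7 FPKM in bin2-1 and 0.173 FPKM in wild type. These expansins were well above wild type in both mutants, with bzr1-D/bin2-1 the higher mutant for each. Of the 16 expansins, 2 were higher and 3 lower in bzr1-D/bin2-1 than in bin2-1 at q under 0.05 in the authors' deposited table. Among all analysed genes these shares were 12.4% each way. EXPA10 was the one at least 2-fold lower than wild type, at 0.903 FPKM in bzr1-D/bin2-1, 6.34 FPKM in bin2-1 and 4.08 FPKM in wild type. For EXPA10 bin2-1 lay above wild type.

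The xyloglucan endotransglucosylases, which cut and rejoin wall xyloglucan, held members far to either side. Of 23 analysed, 5 were at least 2-fold higher and 8 lower, against 10.3% higher and 10.7% lower among all genes. The median log2 ratio was -0.44. XTH31 was at 117.1 FPKM in bzr1-D/bin2-1, 71.6 FPKM in bin2-1 and 1.23 FPKM in wild type, a log2 ratio of 6.46. TCH4, known to respond to touch and to brassinosteroids, was at 7.87 FPKM in bzr1-D/bin2-1, 46.3 FPKM in bin2-1 and 596 FPKM in wild type, and XTH23 at 7.61 FPKM in bzr1-D/bin2-1, 54.4 FPKM in bin2-1 and 373 FPKM in wild type. XTH24 and XTH4 were also lower, with log2 ratios of -3.58 and -2.86. Genes for primary wall cellulose stayed near wild type, with none of 9 past 2-fold and CESA1 at 159 FPKM in bzr1-D/bin2-1 and 151 FPKM in wild type.

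Most cytokinin response genes were higher. Of 15 analysed, 11 were at least 2-fold higher and 1 lower, against 10.3% higher and 10.7% lower among all genes. The median log2 ratio was 1.31. The type-A response regulators, which are induced by cytokinin and damp its signal, included ARR6 at 21.1 FPKM in bzr1-D/bin2-1, 19.99 FPKM in bin2-1 and 1.12 FPKM in wild type, ARR5 at 30.5 FPKM in bzr1-D/bin2-1, 29.1 FPKM in bin2-1 and 3.96 FPKM in wild type and ARR4 at 88.8 FPKM in bzr1-D/bin2-1, 99.3 FPKM in bin2-1 and 13.5 FPKM in wild type. CKX3, a cytokinin-degrading oxidase, was at 4.69 FPKM in bzr1-D/bin2-1, 4.804 FPKM in bin2-1 and 0.391 FPKM in wild type, and CKX4 was the one lower, at 0.3105 FPKM in bzr1-D/bin2-1 and 1.04 FPKM in wild type. Both mutants stood at similar levels for ARR4, ARR5, ARR6 and CKX3, all with q above 0.05 between them in the authors' deposited table, which does not show that they are equal. Among auxin genes, 12 of 13 analysed carriers were above wild type. PIN7 was past 2-fold, at 42.01 FPKM in bzr1-D/bin2-1 and 19.8 FPKM in wild type. LAX3 was also past 2-fold, at 48.4 FPKM in bzr1-D/bin2-1 and 21.5 FPKM in wild type. Of 18 analysed early response genes, 4 were at least 2-fold higher and 4 lower, against 10.3% and 10.7% of all genes. IAA14, an auxin-signalling repressor of root formation, was at 9.05 FPKM in bzr1-D/bin2-1 and 26.7 FPKM in wild type, and IAA28 at 85.8 FPKM in bzr1-D/bin2-1 and 36.3 FPKM in wild type.

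Suberin genes, which build the endodermal lipid barrier, were mostly higher. Of 16 analysed, 10 were at least 2-fold higher than wild type and none was lower, against 10.3% and 10.7% of all genes. The median log2 ratio was 1.54, against 0.59 for bin2-1. Of the 16 analysed, 9 rose at q under 0.05 in the double mutant relative to bin2-1 in the authors' deposited table, against 12.4% of all analysed genes, and none fell. ASFT, a feruloyl transferase of suberin, was at 71.8 FPKM in bzr1-D/bin2-1, 58.2 FPKM in bin2-1 and 9.82 FPKM in wild type, and KCS2, a fatty-acid elongase, at 33.3 FPKM in bzr1-D/bin2-1, 16.1 FPKM in bin2-1 and 4.87 FPKM in wild type. FAR4, a fatty acyl reductase, was at 17.7 FPKM in bzr1-D/bin2-1, 6.33 FPKM in bin2-1 and 2.74 FPKM in wild type, and the transporter ABCG6 at 50.03 FPKM in bzr1-D/bin2-1, 20.8 FPKM in bin2-1 and 11.2 FPKM in wild type. For these genes the double mutant was above bin2-1, and bin2-1 above untreated wild type, while ABA-treated wild type reached 72.8 FPKM for ASFT and 121 FPKM for KCS2. The regulators MYB39 (-0.57) and MYB53 (-0.28, both log2 ratios) were within 2-fold.

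Aquaporins were more often above wild type than below it in the double mutant. Of 21 analysed, 7 were at least 2-fold higher in bzr1-D/bin2-1 and 1 lower, against 10.3% and 10.7% of all genes. The median log2 ratio was 0.41. In bin2-1 4 were higher and 7 lower, against 11.2% each way among all genes, with a median of -0.65. Their summed level was 8229 FPKM in bzr1-D/bin2-1, 4031 FPKM in bin2-1 and 8177 FPKM in wild type, the last including 1750.4 FPKM of NIP2;1. In bzr1-D/bin2-1 relative to bin2-1, 14 of them rose at q under 0.05 in the authors' deposited table and 2 fell, against 12.4% of all analysed genes that rose and 12.4% that fell. The tonoplast channel TIP2;2 was at 389 FPKM in bzr1-D/bin2-1, 31.9 FPKM in bin2-1 and 155 FPKM in wild type, TIP2;3 at 92.6 FPKM in bzr1-D/bin2-1, 4.52 FPKM in bin2-1 and 23.6 FPKM in wild type, and the plasma membrane channel PIP2;4 at 169.7 FPKM in bzr1-D/bin2-1, 38.7 FPKM in bin2-1 and 73.6 FPKM in wild type. For TIP2;2 and TIP2;3 bin2-1 lay below wild type and the double mutant above it.

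Secondary wall and xylem genes were mostly above wild type. Of 16 analysed secondary wall genes, 5 were at least 2-fold higher than wild type and none lower, against 10.3% and 10.7% of all genes. The median log2 ratio was 0.82, and -0.17 for bin2-1. By the authors' deposited table, 14 of them rose in the double mutant relative to bin2-1 at q under 0.05, against 12.4% of all analysed genes. LAC17 and LAC4, laccases of lignin formation, were at 21.5 FPKM in bzr1-D/bin2-1, 12.5 FPKM in bin2-1 and 5.16 FPKM in wild type and at 11.4 FPKM in bzr1-D/bin2-1, 6.71 FPKM in bin2-1 and 2.79 FPKM in wild type. FLA11, an arabinogalactan protein of secondary walls, was at 34.3 FPKM in bzr1-D/bin2-1, 16.4 FPKM in bin2-1 and 11.2 FPKM in wild type. The secondary-wall cellulose synthase CESA4 was at 19.1 FPKM in bzr1-D/bin2-1, 8.57 FPKM in bin2-1 and 10.05 FPKM in wild type, within 2-fold of wild type. Of the Casparian strip genes CASP5 was at 10.8 FPKM in bzr1-D/bin2-1, 1.73 FPKM in bin2-1 and 3.69 FPKM in wild type and MYB36, the regulator of the strip, at 11.8 FPKM in bzr1-D/bin2-1, 17.9 FPKM in bin2-1 and 28.2 FPKM in wild type, whereas CASP1 and CASP2 had log2 ratios of 0.01 and 0.13.

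**Figure D4:**
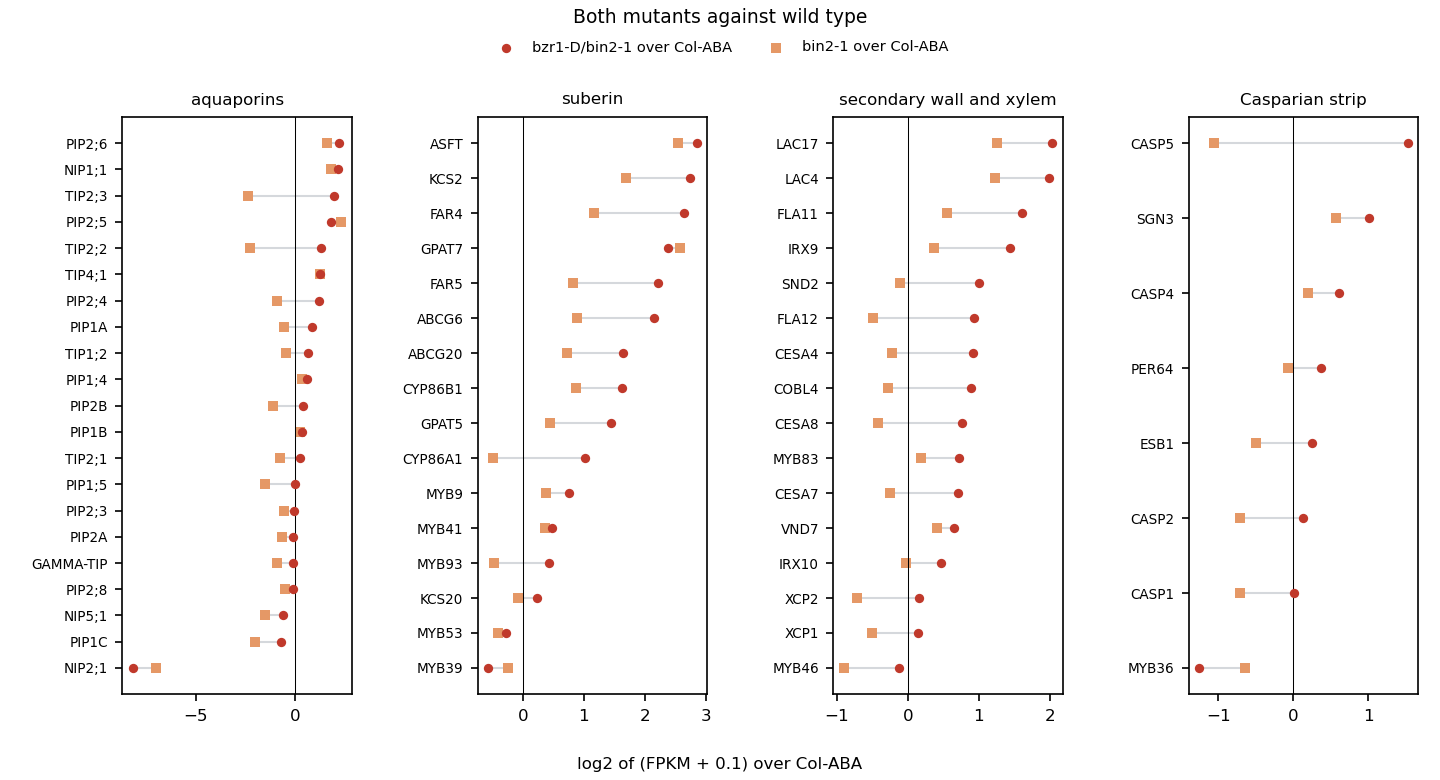
log2 of (FPKM + 0.1) over untreated wild type (horizontal axis, its range set for each panel) for aquaporin, suberin, secondary wall and Casparian strip genes, with bzr1-D/bin2-1 as circles and bin2-1 as squares. The double mutant lies to the right of bin2-1 for most genes, and the widest gaps are those of TIP2;3, TIP2;2 and CASP5.

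Most sulfur-deficiency genes were higher. Of 16 analysed, 10 were at least 2-fold higher and 2 lower, against 10.3% higher and 10.7% lower among all genes. The median log2 ratio was 1.38, and 1.79 for bin2-1. LSU1, a marker of low sulfur, was at 36.5 FPKM in bzr1-D/bin2-1, 27.1 FPKM in bin2-1 and 1.71 FPKM in wild type. The neighbouring genes LSU2 and LSU4 had another order, with LSU2 at 49.5 FPKM in bzr1-D/bin2-1, 1.16 FPKM in bin2-1 and 6.76 FPKM in wild type and LSU4 at 38.8 FPKM in bzr1-D/bin2-1, 0.501 FPKM in bin2-1 and 1.896 FPKM in wild type, so bin2-1 was lowest and the double mutant highest. In the authors' deposited table the q of bin2-1 over wild type was 0.000360 for LSU2 and 0.0696 for LSU4, and the q of bzr1-D/bin2-1 over bin2-1 was 0.000451 for LSU2 and 0.0123 for LSU4. APR1, an APS reductase of sulfate assimilation, was at 104 FPKM in bzr1-D/bin2-1, 131 FPKM in bin2-1 and 30.6 FPKM in wild type. The sulfate uptake carriers SULTR1;1 and SULTR1;2 were lower, at 0.826 FPKM in bzr1-D/bin2-1 and 4.54 FPKM in wild type and at 26.3 FPKM in bzr1-D/bin2-1 and 109 FPKM in wild type.

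Nitrate genes held members far to either side. NIA1 and NIA2, the nitrate reductases, were at 28.5 FPKM in bzr1-D/bin2-1 and 290.2 FPKM in wild type and at 53.8 FPKM in bzr1-D/bin2-1 and 431 FPKM in wild type, and the dual-affinity transporter NRT1.1 was at 144 FPKM in bzr1-D/bin2-1, 76.5 FPKM in bin2-1 and 508 FPKM in wild type. NRT2.6, a member of the high-affinity family, was at 15.4 FPKM in bzr1-D/bin2-1, 24.04 FPKM in bin2-1 and 0.166 FPKM in wild type. It was among the 10 with the highest ratio, of genes at 5 FPKM or more in bzr1-D/bin2-1 and above 0 in wild type. NRT1.5, which loads nitrate into the xylem, was at 296 FPKM in bzr1-D/bin2-1, 119 FPKM in bin2-1 and 116 FPKM in wild type. Iron-deficiency genes were divided, with 5 of 16 at least 2-fold higher and 4 lower, against 10.3% and 10.7% of all genes. IRT1, the main root iron importer, was at 21.2 FPKM in bzr1-D/bin2-1, 11.5 FPKM in bin2-1 and 2.67 FPKM in wild type, and BHLH39, a regulator of iron uptake, was at 4.25 FPKM in bzr1-D/bin2-1, 6.77 FPKM in bin2-1 and 14.3 FPKM in wild type.

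ABA receptors were more often lower than higher. Of 10 analysed ABA receptors, 5 were at least 2-fold lower and 1 higher, against 10.7% lower and 10.3% higher among all genes. The median log2 ratio was -1.01. PYL5 was at 46.6 FPKM in bzr1-D/bin2-1, 56.3 FPKM in bin2-1 and 257 FPKM in wild type, and PYL1, the one higher, at 34.7 FPKM in bzr1-D/bin2-1, 26.6 FPKM in bin2-1 and 16.5 FPKM in wild type. Clade A protein phosphatases, which are inhibited by the receptors, were above wild type in 6 of 6 analysed genes, 2 of them past 2-fold: ABI1 at 54.1 FPKM in bzr1-D/bin2-1, 52.5 FPKM in bin2-1 and 16.6 FPKM in wild type and ABI2 at 5.06 FPKM in bzr1-D/bin2-1, 4.95 FPKM in bin2-1 and 2.203 FPKM in wild type. Of 9 analysed ABA transcription factors and SnRK2 kinases, 7 were within 2-fold, 2 were lower and none was higher, against 10.7% lower among all genes, and the median log2 ratio was -0.30. The lower ones were the kinase OST1 at 6.28 FPKM in bzr1-D/bin2-1, 8.92 FPKM in bin2-1 and 56.8 FPKM in wild type and the factor ABF1 at 32.4 FPKM in bzr1-D/bin2-1 and 81.1 FPKM in wild type. Of 7 analysed ABA synthesis and breakdown genes, 1 was at least 2-fold higher and 1 lower, against 10.3% and 10.7% of all genes. Of 14 analysed genes of the ABA-responsive list 3 were at least 2-fold higher and 2 lower, against 10.3% and 10.7% of all genes. The lowest of them was ADH1, which is also in the low-oxygen list. RD29A, an ABA- and stress-induced gene, was within 2-fold of wild type. It was at 12.6 FPKM in bzr1-D/bin2-1, 3.74 FPKM in bin2-1 and 7.92 FPKM in wild type, against 720.4 FPKM in ABA-treated wild type. LTI30, a dehydrin, was at 147 FPKM in bzr1-D/bin2-1, 189 FPKM in bin2-1 and 40.1 FPKM in wild type.

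Of 11 analysed flavonoid genes, 6 were at least 2-fold higher in the double mutant and 1 lower, against 10.3% and 10.7% of all genes. CHS, chalcone synthase at the head of the pathway, was at 317 FPKM in bzr1-D/bin2-1, 426 FPKM in bin2-1 and 87.4 FPKM in wild type, and PAL1, phenylalanine ammonia-lyase, at 219 FPKM in bzr1-D/bin2-1, 324 FPKM in bin2-1 and 56.02 FPKM in wild type. Of the indole glucosinolate and camalexin genes, 6 of 14 were higher and 3 lower, set beside the same shares of all genes. MYB34, a regulator of indole glucosinolates, was at 38.7 FPKM in bzr1-D/bin2-1, 40.2 FPKM in bin2-1 and 6.99 FPKM in wild type, and CYP71A12, an enzyme of camalexin synthesis, at 2.48 FPKM in bzr1-D/bin2-1, 30.9 FPKM in bin2-1 and 0.223 FPKM in wild type. The near-identical CYP71A13 may share reads with CYP71A12. In the double mutant relative to bin2-1, 11 of these genes fell at q under 0.05 in the authors' deposited table, against 12.4% of all analysed genes, and none rose.

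Mitotic genes were near wild type. None of 19 analysed passed 2-fold, with a median log2 ratio of 0.01, and CYCB1;1, a mitotic cyclin, was at 10.07 FPKM in bzr1-D/bin2-1 and 7.38 FPKM in wild type. In the meristem patterning list 4 of 19 genes were at least 2-fold higher and none lower, against 10.3% and 10.7% of all genes. PLT1, a regulator of the stem cell niche, was at 7.81 FPKM in bzr1-D/bin2-1, 3.17 FPKM in bin2-1 and 3.23 FPKM in wild type. PLT2, another such regulator, was at 6.39 FPKM in bzr1-D/bin2-1, 5.12 FPKM in bin2-1 and 1.93 FPKM in wild type. WOX5, which marks the quiescent centre, was at 3.897 FPKM in bzr1-D/bin2-1, 10.7 FPKM in bin2-1 and 1.94 FPKM in wild type. By the log2 ratio used for calling, which understates folds of low genes, WOX5 was within 2-fold of wild type. BRN1, a root cap factor, was at 26.4 FPKM in bzr1-D/bin2-1, 16.7 FPKM in bin2-1 and 5.36 FPKM in wild type. In the root hair list 4 of 20 were at least 2-fold higher and 2 lower, against 10.3% and 10.7% of all genes. The number lower was thus near the share of all genes. RSL4, which drives hair elongation, was at 25.6 FPKM in bzr1-D/bin2-1, 26.8 FPKM in bin2-1 and 6.63 FPKM in wild type. Its relative RSL2 was at 1.84 FPKM in bzr1-D/bin2-1, 2.65 FPKM in bin2-1 and 11.8 FPKM in wild type. GLK2, a regulator of chloroplast genes, was at 4.98 FPKM in bzr1-D/bin2-1, 4.88 FPKM in bin2-1 and 0.333 FPKM in wild type. LHCB3, an antenna protein, was at 4.77 FPKM in bzr1-D/bin2-1, 5.76 FPKM in bin2-1 and 1.19 FPKM in wild type. Both belong to the green tissue list. Of its 12 analysed genes, 7 were at least 2-fold higher and 1 lower, against 10.3% and 10.7% of all genes. The list median was 1.24, and 0.53 with no minimum FPKM.

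**Figure D5:**
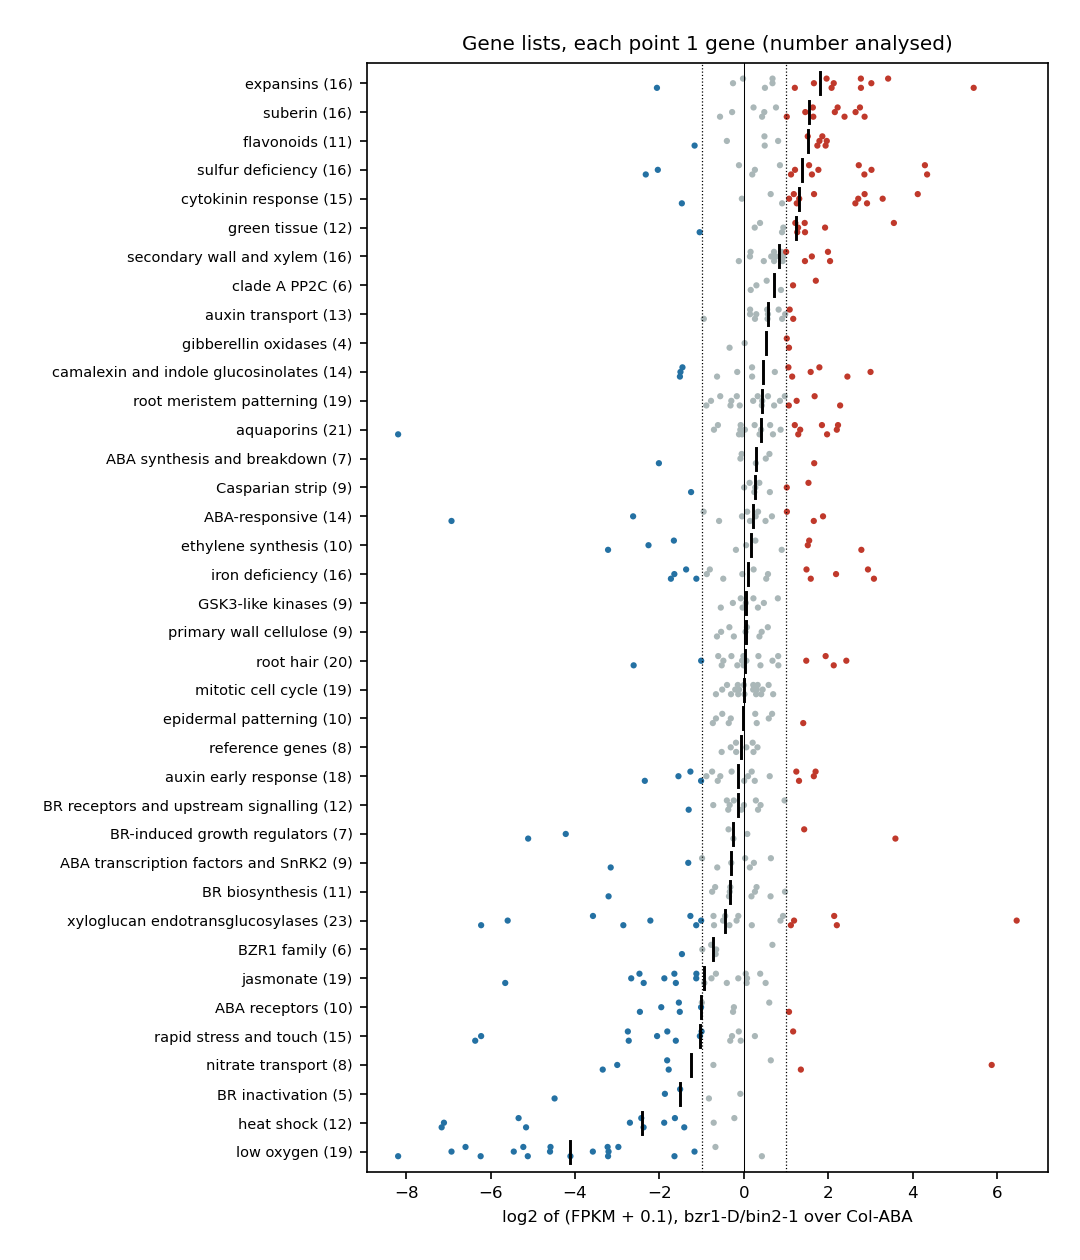
Each point is 1 analysed gene of a list, placed by its log2 ratio of (FPKM + 0.1) in bzr1-D/bin2-1 over untreated wild type (horizontal axis), with red for at least 2-fold higher and blue for at least 2-fold lower. The black bar is the list median, lists are ordered by it, and the number of genes is in brackets: low-oxygen and heat-shock genes lie lowest, and expansin and suberin genes highest.

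Genes were ranked by ratio if they had 5 FPKM or more in the higher group and were above 0 in the lower. The 10 of these with the highest ratio over wild type were mostly near 0 in wild type. AT3G43740, annotated as a leucine-rich repeat protein, was at 19.1 FPKM in bzr1-D/bin2-1, 22.5 FPKM in bin2-1 and 0.0348 FPKM in wild type, and AT5G56747 at 12.95 FPKM in bzr1-D/bin2-1, 8.56 FPKM in bin2-1 and 0.0300 FPKM in wild type. The authors' deposited table gave q values of 0.321 and 0.337 for bin2-1 over wild type for these genes, so the step did not pass 0.05 despite its size. AT3G47680, RTFL11, AT4G01593, AT3G07380, AT5G34871 and CLE5 also missed 0.05 for that step in the authors' deposited table, and XTH31 and NRT2.6, described above, passed it. CLE5, a signalling peptide of the CLAVATA3 family, was at 16.4 FPKM in bzr1-D/bin2-1, 0.938 FPKM in bin2-1 and 0.204 FPKM in wild type, with a q of 0.000451 for bzr1-D/bin2-1 over bin2-1 in the authors' deposited table.

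At the other end of this ranking, 5 of the 10 genes with the lowest ratio are those described above, ADH1, PDC1, NIP2;1, HSP17.6II and HSP17.6A. AT5G10040, an uncharacterized protein, was at 3.08 FPKM in bzr1-D/bin2-1, 5.29 FPKM in bin2-1 and 614 FPKM in wild type, and AT2G14247 at 1.81 FPKM in bzr1-D/bin2-1, 12.5 FPKM in bin2-1 and 365 FPKM in wild type. PHI-1, annotated as a phosphate-responsive protein, was at 1.79 FPKM in bzr1-D/bin2-1, 12.7 FPKM in bin2-1 and 349 FPKM in wild type. For bzr1-D/bin2-1 over bin2-1, AT2G14247 and PHI-1 passed 0.05 in the authors' deposited table (q = 0.000451 for both) and AT5G10040 did not (q = 0.657). AT2G17850, annotated as a rhodanese family protein, was at 2.499 FPKM in bzr1-D/bin2-1, 6.61 FPKM in bin2-1 and 401 FPKM in wild type. AT1G12340, a cornichon family protein, was at 0.0928 FPKM in bzr1-D/bin2-1, 20.3 FPKM in bin2-1 and 33.3 FPKM in wild type, with a q of 0.228 for bzr1-D/bin2-1 over bin2-1 in the authors' deposited table.

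Some genes were near wild type in bin2-1 and past 2-fold in the double mutant. PDF2.1, a defensin-like protein, was at 48.3 FPKM in bzr1-D/bin2-1, 9.02 FPKM in bin2-1 and 7.398 FPKM in wild type, and CHX17, a cation exchanger, at 55.02 FPKM in bzr1-D/bin2-1, 9.56 FPKM in bin2-1 and 9.79 FPKM in wild type. MC6, a metacaspase, was at 30.1 FPKM in bzr1-D/bin2-1, 4.56 FPKM in bin2-1 and 5.11 FPKM in wild type. GAD4, a glutamate decarboxylase, was lower, at 0.565 FPKM in bzr1-D/bin2-1, 7.903 FPKM in bin2-1 and 7.77 FPKM in wild type, and MSRB8, a methionine sulfoxide reductase, at 4.81 FPKM in bzr1-D/bin2-1, 29.7 FPKM in bin2-1 and 35.6 FPKM in wild type. AT5G10770, annotated as an aspartyl protease, was higher, at 306 FPKM in bzr1-D/bin2-1, 65.8 FPKM in bin2-1 and 58.6 FPKM in wild type, as was AT4G33550, annotated as a lipid-transfer protein, at 182 FPKM in bzr1-D/bin2-1, 31.4 FPKM in bin2-1 and 34.96 FPKM in wild type. AT5G22555, an uncharacterized protein, was lower, at 0.182 FPKM in bzr1-D/bin2-1, 6.87 FPKM in bin2-1 and 7.72 FPKM in wild type, as were AT4G04223 at 0.286 FPKM in bzr1-D/bin2-1, 4.96 FPKM in bin2-1 and 5.000 FPKM in wild type and AT1G78860, annotated as a lectin, at 15.3 FPKM in bzr1-D/bin2-1, 116 FPKM in bin2-1 and 145 FPKM in wild type. For bzr1-D/bin2-1 over bin2-1, 9 of these 10 genes had a q under 0.05 in the authors' deposited table and AT5G22555 did not (q = 0.331). For bin2-1 over wild type, AT1G78860 had a q of 0.0462 in the authors' deposited table and the lowest of the others was 0.173. These genes were chosen by this pattern, so their values describe it and support nothing further.

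Others departed at least 4-fold in bin2-1 and lay near wild type in the double mutant. ACLA-2, which encodes part of the enzyme ATP-citrate lyase, was at 68.95 FPKM in bzr1-D/bin2-1, 0.968 FPKM in bin2-1 and 59.01 FPKM in wild type, and AT1G52347 was at 18.8 FPKM in bzr1-D/bin2-1, listed at 0 in bin2-1 and at 17.00 FPKM in wild type. CLE14, another CLE peptide, was at 7.33 FPKM in bzr1-D/bin2-1, 48.3 FPKM in bin2-1 and 7.01 FPKM in wild type, and AT1G63390, annotated as a flavin-containing monooxygenase, at 1.597 FPKM in bzr1-D/bin2-1, 35.4 FPKM in bin2-1 and 1.82 FPKM in wild type. Opposite directions against wild type were seen for ARD3, an acireductone dioxygenase of methionine salvage, at 0.407 FPKM in bzr1-D/bin2-1, 24.01 FPKM in bin2-1 and 5.68 FPKM in wild type, and for ACS11, an ethylene synthesis enzyme, at 1.198 FPKM in bzr1-D/bin2-1, 17.1 FPKM in bin2-1 and 6.12 FPKM in wild type. Of these 2, bin2-1 was the highest group and the double mutant the lowest.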

How the data were processed

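Messenger RNA of Arabidopsis root tips was sequenced in 8 libraries of 4 groups, per the labels' protocols, and TopHat, Cufflinks and TAIR10 are named as tools and build, per the submitters' processing notes. Versions, settings and strand handling are not given in the sources at hand. The authors deposited 3 tables for 33557 genes, each with 1 FPKM value per group, a ratio (fold change) of the 2 groups, a p-value and a q-value. The deposited group values were taken to be FPKM because Cufflinks is named and their sums differ between groups. The deposited q-values come from a test of the authors that is not named, and the smallest are shared by many genes.

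The bzr1-D/bin2-1 column and the Col-ABA column stand in separate tables, so the first table was divided by the median ratio of the shared bin2-1 column (1.04). The log2 ratio of (FPKM + 0.1) was taken for genes with at least 1 FPKM in either group, and calling used 2-fold or 4-fold. Folds of low genes are understated by the pseudocount. With 1 pooled value per group there is no replicate error, and the q-values printed are those of the authors for bin2-1 over Col-ABA and bzr1-D/bin2-1 over bin2-1. The ratio, rescaling and calling were tested on simulated data. Depth per library is unknown and limits all low values.

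The members and the 38 gene lists were chosen with earlier results of these data known. Of 586 list genes, 563 were matched to RefSeq genes of TAIR10.1 by symbol or unique synonym, or by hand for 13 where a symbol belongs to several genes or to another one (32810 identifiers of the tables are found there), and members under 1 FPKM in both groups are not counted. The genes named are BZR1, BIN2 and ABI5, the 10 largest ratios each way with the higher group at 5 FPKM or more and the lower above 0, in each list the 3 members with the largest ratio past 2-fold, and the 5 largest each way for 3 patterns: bin2-1 within 1.25-fold of wild type and the double mutant past 2-fold, bin2-1 past 4-fold and the double mutant within 1.25-fold, and opposite directions. Other list members were named after their values were seen, and not every gene the rule allows is printed. For 1 list member that enters the counts, no name or values are reported here. Counts of genes shared between the mutants' comparisons with wild type, once planned, are not given because they share the Col-ABA libraries. Promoter windows of 300 bases were read from the TAIR10.1 genome. Alternatives were pseudocounts of 0.01 and 1, a minimum of 5 FPKM or none, no rescaling, and centring. A further one summed log2 values calculated here from the 2 deposited fold changes. Analyses used Python 3.11.15, pandas 2.3.3, numpy 2.4.6 and matplotlib 3.10.9.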

Additional observations from a re-analysis of the deposited data

How the results depend on the processing

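Under 7 alternatives to the processing, the counts at 2-fold ranged from 1304 to 2578 higher and 1564 to 2623 lower, and at 4-fold from 273 to 693 higher and 457 to 843 lower. A pseudocount of 1 gave 273 genes higher and 457 lower at 4-fold, because it shrinks the ratios of low genes. A minimum of 5 FPKM, which tests fewer genes, gave 1304 higher at 2-fold and 341 higher at 4-fold. The other alternatives kept each count within 1.5 times. No rescaling shifted the median log2 ratio of all genes to 0.04 and the share of higher genes among those called to 53.5%, against 49.2%. The 53 genes checked 1 by 1 were BZR1, BIN2, ABI5 and those chosen by the largest ratios or by the 3 patterns. They kept their side of 2-fold under every alternative that kept them, and those past 2-fold kept their direction. The other list members named in the text were not checked 1 by 1. Of the 38 list medians, none moved by 0.25 or more with a pseudocount of 0.01, no rescaling, centring or the summed fold changes; 3 did with a pseudocount of 1, 8 with no minimum and 12 with a minimum of 5 FPKM, where the ABA synthesis and breakdown list turned to -0.054, against 0.28. The cytokinin response median was 2.18 at that minimum, and the expansin median 1.21 with no minimum. No paired analysis was possible because the tables give 1 pooled value per group, and for the same reason no library could be left out. Counts of genes shared between the mutants' comparisons were not run. What the authors' test and the unknown depth allow for low genes limits every ratio near the minimum.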

Other observations

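The genes at least 4-fold apart between bzr1-D/bin2-1 and wild type were unevenly placed along the chromosomes. In 186 consecutive windows of 100 analysed genes the median window held 6 of them. The window from AT3G28956 to AT3G43528 on chromosome 3, which crosses the gene-poor region around the centromere, held 22, of which 11 were higher and 11 lower in the double mutant. The next window on chromosome 3, from AT3G43540 to AT3G45310, held 20, of which 14 were higher and 6 lower, and includes AT3G43740, XTH31 and NRT2.6 of the genes with the highest ratios. On chromosome 5 the window from AT5G43780 to AT5G45050 held 16. The windows that contain BZR1 and BIN2 held 5 and 8. The placement was not tested.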
